A study of Drosophila melanogaster with 2 samples.

Results

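The 320 regions described here are autosomal intergenic binding sites of a green fluorescent protein (GFP)-tagged product of CG15812, mapped in whole Drosophila melanogaster embryos by chromatin immunoprecipitation and sequencing (ChIP-seq). They were taken from the authors' list of both replicates pooled, and chosen by the signal value that the authors gave each region there and by position. The list holds 29997 regions on 6 chromosome arms. The first 300 by signal were left out and the next 5700, down to rank 6000, were kept. Members are those among them whose summit lay on 2L, 2R, 3L or 3R, more than 1 kb from any annotated transcription start site (TSS) and inside no annotated gene. On these 4 arms, 4651 regions had such ranks. Of the 320 members, 145 belong to the 2886 peaks that the authors kept by the irreproducible discovery rate (IDR), a measure of agreement between replicates, and are called IDR members below. The other 175, ranked after 2886, are called later members. The IDR list held 45.4% of all 5700 regions of these ranks, and 45.3% of the members. Signal, rank and membership of the IDR list chose or divided the members, so they are given as descriptions and without a test.

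Both samples form 1 group of 2 biological replicates, made from a transgenic line with GFP fused to the C-terminus of CG15812. The embryos were 0 to 24 h old and of both sexes, and chromatin was sonicated to 200 to 800 bp, per the labels. The labels name the factor pfk, while the annotation used here gives the symbol Pfk to phosphofructokinase, so the tagged gene is called CG15812. A description in the labels speaks of an input control, whereas the assay title and the antibody entry mark immunoprecipitated samples, and the samples were treated as such. No untagged or wild-type group was analysed here, all embryonic cell types are mixed, and read depth is unknown. Both replicates share 1 control alignment.

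CG15812 encodes a protein with a BTB domain, a fold through which proteins pair, and a Pipsqueak-type helix-turn-helix domain that binds DNA. Proteins of this family act in the nucleus, several of them in the control of developmental genes. Sequence between genes and away from TSSs can hold enhancers, silencers and insulators, and a ChIP-seq region there does not by itself say which gene, if any, is controlled from it. The gene with the nearest protein-coding TSS is therefore given below as a position and not as a target.

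The sequences at 8 summits show what the counts below refer to. Each is the plus strand of build dm6 from 50 bp before to 50 bp after the summit, and the capitals mark GGAACG or its reverse complement CGTTCC, the 6-mer followed below. The first 4 hold several copies, 3 of them at IDR members and 1 at the later member near spel1, which was chosen after its values were seen. The fifth is the member of highest signal, with 1 copy. The last 3 are IDR members without a copy, shown for contrast. They lie at chr2L:20535004-20535104 near CG44270, chr2L:16148602-16148702 near CG34168, chr3R:17557832-17557932 near the homeobox gene Hmx, chr2L:14370281-14370381 near the mismatch repair gene spel1, chr3R:20728092-20728192 near CG31205, chr3R:16423434-16423534 near CG31279, chr3L:11280736-11280836 near Dyro and chr3R:5095375-5095475 near corto.
CG44270, rank 681: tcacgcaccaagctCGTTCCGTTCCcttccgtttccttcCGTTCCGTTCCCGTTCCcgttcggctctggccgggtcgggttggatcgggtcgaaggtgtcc
CG34168, rank 743: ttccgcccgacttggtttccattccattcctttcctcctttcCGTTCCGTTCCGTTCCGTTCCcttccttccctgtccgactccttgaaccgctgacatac
Hmx, rank 398: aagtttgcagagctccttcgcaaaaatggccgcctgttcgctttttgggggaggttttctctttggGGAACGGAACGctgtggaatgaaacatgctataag
spel1, rank 2952: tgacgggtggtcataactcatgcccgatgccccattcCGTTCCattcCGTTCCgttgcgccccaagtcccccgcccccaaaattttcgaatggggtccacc
CG31205, rank 312: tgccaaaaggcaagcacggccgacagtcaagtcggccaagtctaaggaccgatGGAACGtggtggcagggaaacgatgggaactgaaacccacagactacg
CG31279, rank 355: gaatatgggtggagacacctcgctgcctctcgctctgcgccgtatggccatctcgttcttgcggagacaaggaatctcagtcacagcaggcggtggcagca
Dyro, rank 383: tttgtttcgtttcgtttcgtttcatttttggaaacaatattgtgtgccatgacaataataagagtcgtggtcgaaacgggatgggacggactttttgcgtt
corto, rank 1678: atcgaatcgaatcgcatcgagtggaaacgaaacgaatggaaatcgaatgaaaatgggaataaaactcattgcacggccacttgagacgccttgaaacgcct
At CG34168 the 4 copies stood head to tail, each starting 5 bp after the one before and sharing a base with it. At Hmx the 2 copies had the same spacing. The windows at Dyro and corto held no GGAACG, but 4 and 3 copies of GAAACG, which differs from it by 1 base. They do not stand for members without GGAACG in general, since GAAACG was found at only 29 of 145 IDR members, mostly as 1 copy. At CG31279 neither sequence was found in the window.

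GGAACG lay within 50 bp of the summit at 28 of the 320 members (8.75%, 95% Wilson interval 6.12 to 12.4%), against 7.14% of all 5700 regions of these ranks, so the members' share was close to this background. It stood in 13 of the 640 windows of the same size centred 400 bp to both sides of the members (2.03%). Summits exceeded their flanks by 6.72 percentage points (95% Newcombe interval 3.74 to 10.4), and by 1.34 points (−1.19 to 4.81) in the members called at a width of exactly 400 bp, which are described below. Among all 278811 windows of the same length that tile the eligible intergenic sequence of these arms, 2.18% held the 6-mer. The 6-mer was picked in earlier results of these data as a leading sequence at IDR peaks, to which the IDR members belong, so its excess there is not independent evidence. Intervals here and below cover counting error only, and regions are not replicates. Those of summits minus flanks treat summits and flanks as separate samples and leave out that each flank belongs to a summit. Flanks were also not kept clear of other summits of the pooled list, the nearest of which lay at a median of 862 bp from the members.

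The copies sat close to the summits. The 28 members held 40 copies, whose centres lay at a median of 11 bp from the summit, and 30 of the 40 copies lay within 25 bp. In 51-bp windows stepped along the sequence, the share at IDR members was 11.03% at the summit, 4.83% at 50 bp on either side, and at most 2.07% at 200 bp or more. At later members the share at the summit was 3.43%, and the window 150 bp before the summit had the same share. Intronic sites reached 3.88% at the summit.

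**Figure D1:**
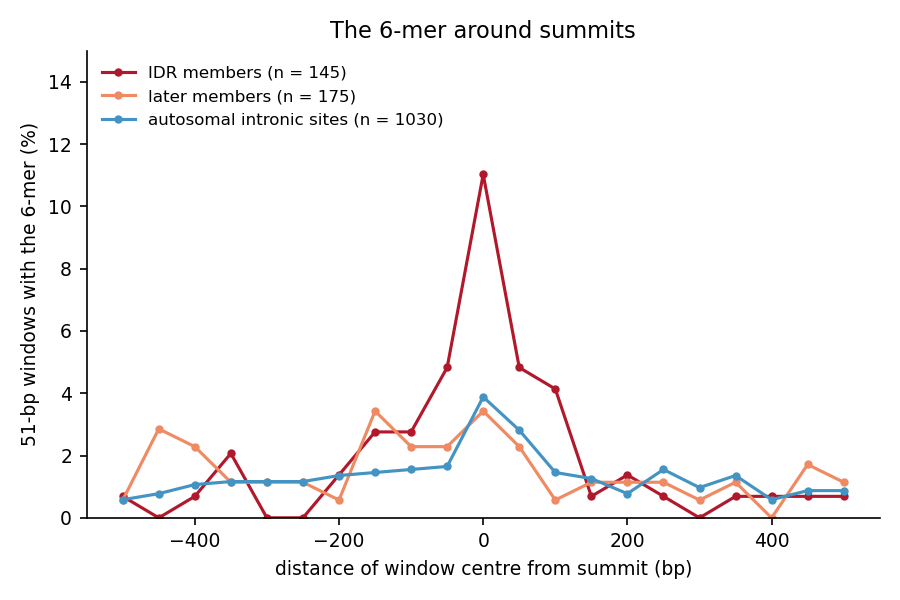
Share of 51-bp windows that hold GGAACG on either strand (y axis, %) against the distance of the window centre from the summit (x axis, bp), for 145 IDR members, 175 later members and 1030 autosomal intronic sites. The IDR members reach 11.03% at the summit, and later members and intronic sites 3.43% and 3.88%.

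IDR members carried the 6-mer more often than later members. Because the 6-mer was picked at IDR peaks of these same data, this contrast favours IDR members in advance. It is given as a description and is not independent evidence. It was found at 21 of 145 IDR members (14.5%, 9.67 to 21.1%) and at 7 of 175 later members (4.0%, 1.95 to 8.03%), a difference of 10.5 percentage points (4.21 to 17.4). Against their own flanks, IDR members differed by 12.8 points (7.45 to 19.5). For later members the difference was 1.71 points, with an interval of −1.26 to 5.89 that includes 0. From the highest signal down, the 6-mer was found at 8 of 41 members up to rank 1000, 9 of 54 further members up to rank 2000 and 4 of 50 up to the end of the IDR list. It was found at 5 of 64 further members up to rank 4000 and 2 of 111 up to rank 6000. The share was thus 19.5% and 16.7% in the upper 2 classes and 1.80% in the lowest of the members, but the order is not steady beyond them. Further down the pooled list, autosomal intergenic summits held the 6-mer at 5.79% up to rank 12000 and at 3.51% up to rank 20000. Intronic sites over the members' 5 classes had 21.6%, 7.01%, 2.90%, 3.98% and 5.34%.

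The width at which a region was called moved with the 6-mer, at the members as at intronic sites and over all 5700 regions of these ranks. The authors' list gives 224 of the 320 members a width of exactly 400 bp, 56 of 145 IDR members and 168 of 175 later members. Over all 5700 regions of these ranks, 76.23% had this width. Among IDR members called at another width, 19 of 89 held GGAACG (21.3%, 14.1 to 31.0%), against 2 of 56 IDR members of 400 bp (3.57%, 0.985 to 12.1%). Among later members called at another width, 1 of 7 held it, against 6 of 168 later members of 400 bp (3.57%). Within regions of 400 bp the shares at IDR and later members therefore differed by 0 points (−4.76 to 8.76), and within regions of another width by 7.06 points (−30.7 to 22.2), with 7 later members. Among the 96 members of another width, summits exceeded flanks by 19.3 points (11.7 to 28.5). This division was made after the values were seen, and how the authors set the called width is not given in the sources read. The contrast by width was not particular to the members. Over all 5700 regions, 217 of 1355 of another width held GGAACG (16.01%), against 190 of 4345 of 400 bp (4.373%). At intronic sites it was 35 of 254 (13.78%) against 35 of 776 (4.51%). Intronic sites of the IDR list made up most of those of another width, with 34 of 232 (14.66%) against 6 of 179 of 400 bp (3.352%). Only 1 intronic site of another width with the 6-mer thus lay outside the IDR list, and the contrast was not computed for later intronic sites alone. Median GC content was 45.0% in members of 400 bp and 44.6% in the other members.

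**Figure D2:**
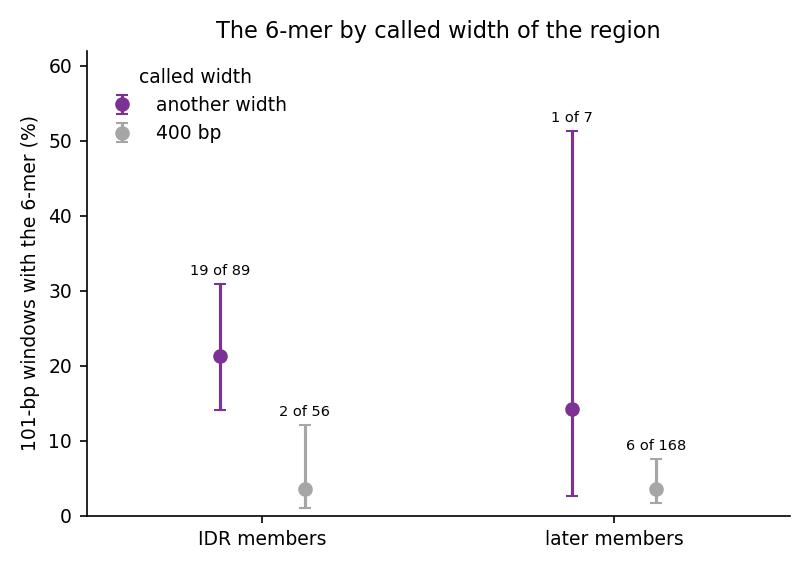
Share of members with GGAACG within 50 bp of the summit (y axis, %, with 95% Wilson intervals), for IDR and later members, each divided into regions called at another width than 400 bp and at 400 bp. IDR members of another width stand at 21.3%, and members of 400 bp at 3.57% in both classes.

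The members were also set against the other classes of the same ranks and arms. GGAACG was found at 70 of 1030 intronic sites, which lie over 1 kb from a TSS inside a gene and in no exon (6.80%). Members differed from them by 1.95 points, with an interval of −1.18 to 5.82 that includes 0. With a window of 25 bp the difference was 2.99 points (0.326 to 6.46), and with members taken from the replicate 1 list alone 3.57 points (0.315 to 7.57). With GGAACG or GAAACG counted it was 5.12 points (0.529 to 10.2), within regions called at 400 bp −0.939 points (−3.38 to 2.61) and within regions of another width 7.05 points (−1.36 to 16.9). IDR members (14.5%) and intronic sites of the IDR list (9.73%) differed by 4.75 points (−1.06 to 11.9). Promoter regions, within 1 kb of a TSS, had the 6-mer at 180 of 3198 summits (5.63%), 3.12 points below the members (0.360 to 6.80).

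The autosomal intergenic regions among the last 5700 ranks of the pooled list, called lowest-ranked below, shared the members' position but not their signal. Of these 893 regions, 17 held GGAACG (1.90%), 6.85 points below the members (3.99 to 10.5). All 893 were called at 400 bp. Members of 400 bp differed from them by 1.67 points (−0.413 to 5.06), and later members as a whole by 2.10 points (−0.241 to 6.18). Median GC content within 50 bp of the summit was 44.6% in members, 38.6% in their flanks and 45.5% in the lowest-ranked regions. The 28 members with GGAACG had a median of 49.5%. Base composition thus differed between summits and flanks, and its part in the shares of the 6-mer was not tested. Outside the ranks and arms of the rule, 8 of 16 autosomal intergenic summits among the first 300 ranks and 13 of 54 intergenic summits on X of the members' ranks held GGAACG.

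**Figure D3:**
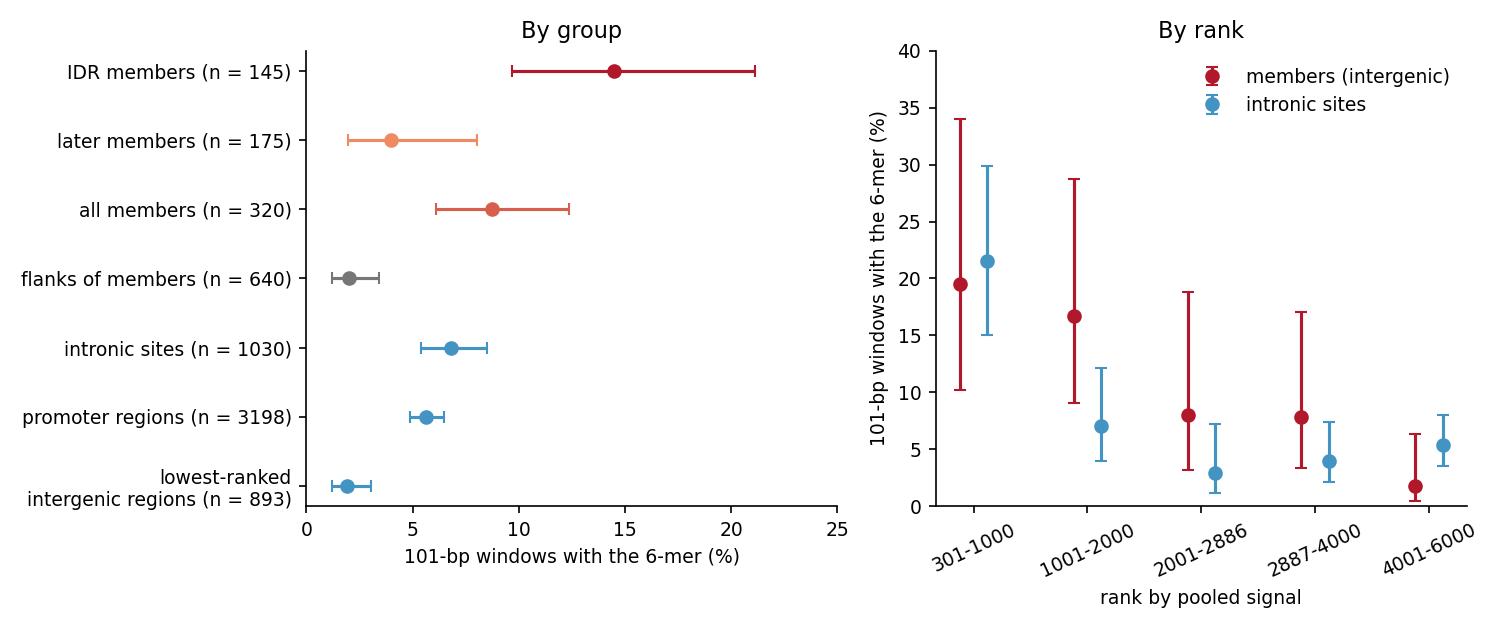
Share of windows with GGAACG within 50 bp of their centre (%, with 95% Wilson intervals) by group (left) and by rank class for members and intronic sites (right). IDR members stand at 14.5%, later members at 4.0% and flanks at 2.03%, and by rank the members lie at 19.5% in the highest class and 1.80% in the lowest.

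Several copies stood in 1 window at 7 members (2.19%, 1.06 to 4.45%), 5 IDR members and 2 later members, against 16 of 1030 intronic sites (1.55%) and 83 of all 5700 regions of these ranks (1.46%), a share within the members' interval. CG44270 had 5 copies and CG34168 had 4, while Hmx, CG14659, nw, spel1 and Spn47C had 2 each. All 12 neighbouring pairs within a window had both copies on the same strand, and 7 of the 12 pairs started exactly 5 bp apart. The 12 pairs came from 7 windows and are not separate units. Of the pairs 5 bp apart, 3 lay at CG34168 and 2 at CG44270. Copies that start 5 bp apart share a base, so their letters allow only the same strand. Over all 5700 regions of these ranks, 38 of 105 such pairs (36.2%) started 5 bp apart and 98 of 105 had the same strand. The sequence GAAACG, added after the windows had been read, was found at 40 members (12.5%) and in 32 of 640 flanks (5.00%). Intronic sites had it at 9.22% and lowest-ranked regions at 4.93%. It was found at 29 of 145 IDR members and 11 of 175 later members. It was picked from these same windows, so its excess there is not independent evidence. Either sequence was present at 46 IDR members (31.7%) and 17 later members (9.71%), or 19.7% of all members. Intronic sites had either at 14.6% and lowest-ranked regions at 6.5%. A pair of either sequence 5 bp apart on 1 strand was found at 7 members and in 1 of 640 flanks. Shares over all 5700 regions were not computed for GAAACG or these pairs. A match describes letters in a window and is not a mapped contact of the protein.

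Among all 6-mers, a 6-mer and its reverse complement counted as 1, 641 were present in at least 5% of the member windows. Of these, CGGAAC had the largest ratio of members to flanks (7.19% of members, 1.56% of flanks, ratio 4.60). CGTTCC, the reverse complement of GGAACG, followed (ratio 4.31), and ACGGAA (9.38% of members, 2.81% of flanks, ratio 3.33) overlaps it too. The other 6-mers of largest ratio were unlike it: AGCGGG (ratio 4.0), CAGAGG (3.82) and CGCCCC (3.33, in 7.81% of members). Flanks had a lower GC content than summits, and its part in these ratios was not tested. In the lowest-ranked regions AGCGGG stood in 4.37%, CAGAGG in 2.46% and CGCCCC in 4.59%. There CGGAAC stood in 2.46%, CGTTCC in 1.90% and ACGGAA in 4.59%. AGCGGG and CAGAGG stood in 3.45% of IDR members each, below their shares of 5.63% and 6.56% over all members. At the low end were A- and T-rich 6-mers, with AATTAA in 5.63% of members and 17.5% of flanks and TTTAAA in 5.00% of members and 13.0% of flanks.

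Motifs of known Drosophila factors and core promoters were read on both strands in the same windows, as letters only. The GAGA factor motif GAGAGAG stood in 2.19% of members, 2.66% of flanks and 4.85% of intronic sites, against 1.07% of all windows that tile the eligible sequence. The core promoter motif CAGCTGTT stood in 5 members (1.56%) and 0.781% of flanks (0.455% of all windows). CACACACA was found in 4.69% of members, 4.85% of intronic sites and 2.03% of flanks (1.92% of all windows). AGGNGGC, part of the motif of the insulator protein CTCF, stood in 5.31% of members and 2.66% of flanks (3.36% of all windows). TATAAAA, the TATA box letters, stood in 1 of 145 IDR members (0.690%), 9 of 175 later members (5.14%) and 5.94% of flanks (5.08% of all windows). These letters were thus rarer at IDR members than in the other windows given, a contrast seen among several motifs and not tested. CACGTG, the E-box of bHLH proteins, stood in 1 member (0.313%) and 1.56% of flanks (1.09% of all windows). GCCATNTT, letters bound by the Polycomb-group protein Pho, stood in 1.56% of members and 1.88% of flanks (2.18% of all windows). GTGGGAA, letters of the Notch effector Su(H), stood in 2.19% of members and 1.25% of flanks (1.30% of all windows). The motifs of M1BP (GGTCACAC), DREF (TATCGATA) and Zelda (CAGGTAG) stood in 1 member each, against 0.127%, 0.190% and 0.424% of all windows. CATCNCTA stood in 2 members (0.619% of all windows), AAAAAAAA in 12 (5.11%), TATATATA in 5 (1.25%) and the paired BEAF-32 motif, CGATA with TATCG after a gap of 3 bases, in 0 of 320, which allows up to 0.938% by a limit of 3 counts (0.00502% of all windows). The DREF and BEAF-32 motifs overlap in letters.

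Pooled signals of the members ranged from 79.35 to 986.7 with a median of 122.5, in the authors' units. IDR members had a lowest, median and highest signal of 128.1, 190.6 and 986.7, and later members of 79.35, 97.5 and 127.5. The first intergenic region inside the rank limit lay upstream of CG31205 (rank 312, signal 986.7), and the last intergenic region outside it near CG34342 (rank 290, signal 1077). The last IDR member lay near E2f2, which encodes a repressive E2F protein (rank 2874, 128.1), and the first later member near dve (rank 2894, 127.5). The last member lay near Dr, a homeobox gene also called muscle segment homeobox (rank 5992, 79.35), and the first region outside near RabGGTa (signal 79.21). At the TSS limit, the member near Slmap lay 1005 bp away and the region left out near Sumo 1000 bp away. The −log10 q-value did not separate the IDR members, since all 145 had the pooled list's highest value, 3.95.

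The 10 IDR members of highest pooled signal had a summit of their own in both replicates. Upstream of CG31205, signals were 564.7 in replicate 1 and 429.9 in replicate 2, and near CG31279 510.7 and 354.4. The region upstream of Haspin, the gene of a histone H3 kinase, had 408.1 and 430.8, and was the 1 of the 10 that was higher in replicate 2. The region 2078 bp downstream of the TSS of Rh3, which encodes an ultraviolet-sensitive rhodopsin, had 406.8 and 361.0. Signals were 420.6 and 328.3 near Dyro, 381.8 and 333.2 upstream of Hmx, and 398.2 and 319.3 near the alkaline phosphatase gene Alp13. The region near Fs, the follistatin gene, had 332.3 and 300.6. Upstream of esg, which encodes a Snail-type zinc finger protein of stem and progenitor cells, signals were 362.5 and 236.3, and near CG10417 302.6 and 290.4. Each of the 10 had at least 236.3 in both replicates. Of these windows, those of CG31205 and Hmx held GGAACG and those of CG31205, Dyro, Alp13 and CG10417 held GAAACG.

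The 5 later members of highest signal had lower values in each replicate. Replicate 1 and replicate 2 gave 69.1 and 64.44 near dve, 63.81 and 64.86 near CG17129, and 70.78 and 32.38 near CG13454. At the region of RYBP ranked 2927 the values were 73.21 and 62.94, and at that of Su(z)2 ranked 2950 they were 46.43 and 75.64. None of these 5 windows held GGAACG, and those near CG13454 and Su(z)2 held GAAACG.

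A replicate summit within 200 bp among the first 6000 ranks was found for 253 members in replicate 1 (79.1%), against 83.2% of all regions of these ranks. In replicate 2 it was found for 268 members (83.8%), against 78.1% of all regions. Both shares lay within 6 points of the background, but their Wilson intervals excluded it, in opposite directions. The interval was 74.27 to 83.16% in replicate 1, below a background of 83.23%. In replicate 2 it was 79.31 to 87.39%, above a background of 78.14%. In both replicates it was found for 212 members (66.3%) and for 63.2% of intronic sites, a difference of 3.05 points whose interval (−3.03 to 8.84) includes 0. By class, 141 of 145 IDR members (97.2%) and 71 of 175 later members (40.6%) were found in both. The replicate lists were used to make the IDR list, so these shares describe the selection. At any rank, 315 members had a summit within 200 bp in replicate 1 and 320 in replicate 2. The 5 without one in replicate 1 lay near Scp1, Rh5, stck, alphaTub84B and CG42693, chosen here after their values were seen.

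At the 315 members matched in both, signal was higher in replicate 1 at 214 (67.9%), with a median log2 ratio of replicate 1 to replicate 2 of 0.19 (SD 0.63). Over all regions of these ranks matched in both, 3740 of 5515 (67.8%) were higher in replicate 1 and the median was 0.26, so the members were close to this background. The median was 0.19 in IDR members (SD 0.51) and 0.18 in later members (SD 0.72). The replicates differed by over 1 log2 at 42 members, 11 IDR members and 31 later members. The share over 1 log2 was not computed for all regions of these ranks, so this count is not read as a trait of the members. The SD of the log2 ratio was 0.66 over all those regions, 0.51 in intronic sites of the IDR list and 0.71 in later intronic sites. Spearman's rho between the replicates was 0.70 over 144 IDR members and −0.28 over 171 later members. These values describe sites that share the control alignment, and later members were chosen within a narrow band of pooled signal that both replicates produced. In 2 members the matched summit of replicate 1, and in 3 that of replicate 2, lay nearer to another pooled summit.

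**Figure D4:**
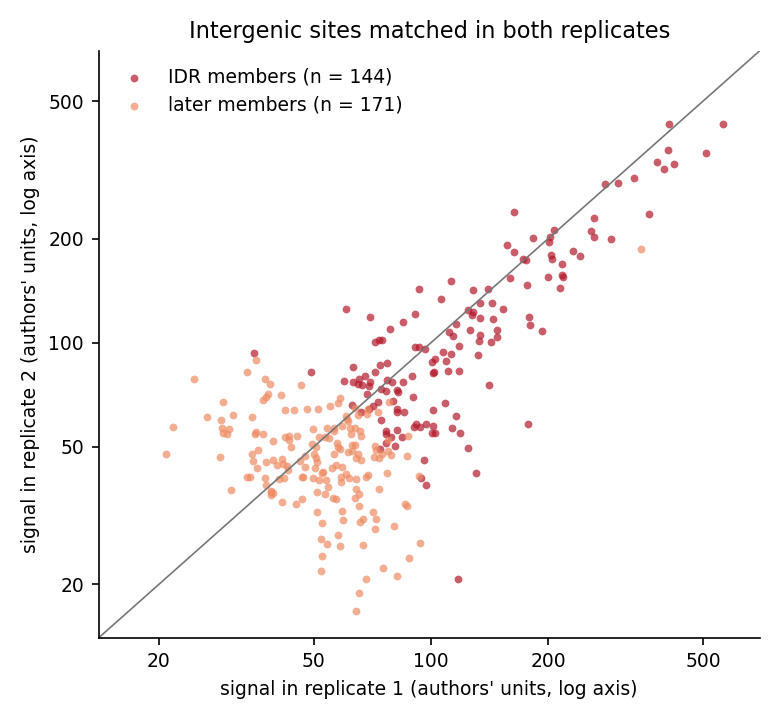
Signal in replicate 2 (y axis) against replicate 1 (x axis), both in the authors' units on log axes, for 144 IDR members and 171 later members matched in both lists, with the line of equal signal. IDR members spread along the line up to 564.7 in replicate 1 and 430.8 in replicate 2, and later members form a broad cloud at low signal.

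The largest differences between replicates were all towards replicate 1. Near CG43402 (rank 2765) signal was 117.1 in replicate 1 and 20.76 in replicate 2, a log2 ratio of 2.50. The region near robo2, the gene of an axon guidance receptor, had 82.02 and 21.16 (1.95), and that near foxo, the gene of a transcription factor downstream of insulin signalling, had 64.1 and 16.72 (1.94). Near rpr, a cell death gene, signals were 87.72 and 23.86 (1.88), and near Indy, the gene of a citrate transporter, 93.98 and 26.28 (1.84). The regions near CG43402, robo2 and foxo lay 1009, 984 and 1094 bp from a summit of the first 300 ranks, whose part in these differences was not tested, while those near rpr and Indy lay 218388 and 226822 bp from one. Across the members, 4 lay within 1 kb and 27 within 5 kb of such a summit. At CG10428 the pooled signal of 124.5 was below that of replicate 1 (345.7) and of replicate 2 (186.5), which was the case at no other matched member. Its summit lay 236 bp from a summit of the first 300 ranks, the shortest such distance among the members. Its called region of 880 bp held 2 summits, and the part of these neighbours in its signals was not tested. This member was chosen here after its values were seen.

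The members were spread over all 4 arms. There were 64 on 2L, 72 on 2R, 104 on 3L and 80 on 3R, or 10.5, 10.4, 12.3 and 11.4 per Mb of eligible sequence, and the exact Poisson 95% intervals of the 4 arms overlapped. In all, 28.5 Mb were eligible, 26.2% of the 4 arms, which gives 11.2 members per Mb (10.02 to 12.5). Members with GGAACG numbered 5 on 2L, 6 on 2R, 6 on 3L and 11 on 3R. The distance to the nearest TSS of any gene ranged from 1005 bp to 157154 bp, with a median of 3500 bp (3499 bp in IDR members and 3567 bp in later members). Of the members, 88 lay within 2 kb of a TSS and 46 beyond 10 kb, 26 IDR members and 20 later members. For 104 members the nearest TSS belonged to a gene other than a protein-coding one. Relative to the nearest protein-coding TSS, 187 members lay upstream and the others downstream of it.

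**Figure D5:**
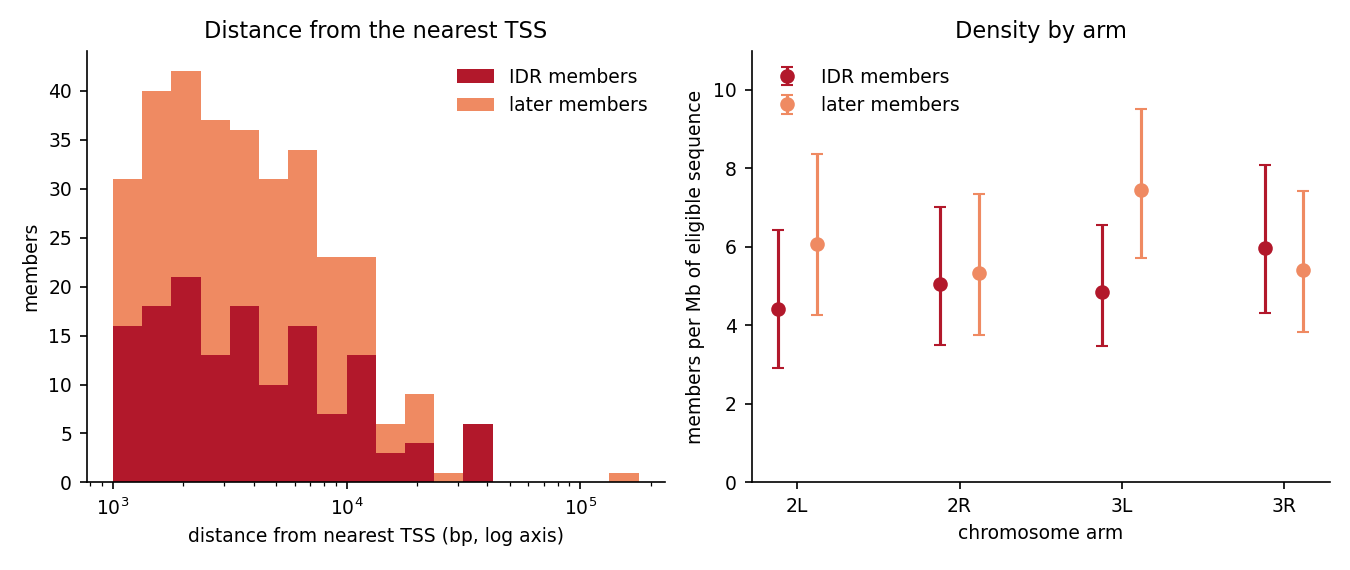
Left, number of members (y axis) by distance from the nearest TSS (x axis, bp, log axis), IDR members and later members stacked. Right, members per Mb of eligible sequence on each arm with exact Poisson 95% intervals. Medians of distance are 3499 bp in IDR members and 3567 bp in later members, and densities on the 4 arms overlap within their intervals.

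The farthest member lay 157154 bp upstream of CG42598 on 3L (rank 5814), in an intergenic gap of 710734 bp. Its signal was 34.92 in replicate 1 and 45.36 in replicate 2, and every base within 50 bp of its summit is soft-masked as repeats in the reference. At least 50% of the window was soft-masked at 22 members (6.88%, 4.58 to 10.2%). Over all 5700 regions of these ranks it was 283 (4.965%), a share within the members' interval. It was 47 of 1030 intronic sites (4.56%) and 47 of 893 lowest-ranked regions (5.26%), and the intervals of both differences from the members include 0. Summits inside an annotated transposable element were found at 3 members (0.938%), against 0.386% of all regions of these ranks. The 3 were IDR members near CG14464, CG10417 and jing, chosen here after their values were seen. The lowest-ranked regions had 13 of 893 (1.46%), and members differed from them by −0.518 points (−1.71 to 1.36). Intronic sites had 3 of 1030 (0.291%), and the difference of 0.646 points had an interval of −0.189 to 2.44. Taken from the replicate 2 list alone, the difference was 1.05 points (0.0645 to 2.91).

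Some intergenic gaps held more than 1 member. The 320 members lay in 241 gaps, of which 188 held 1 member, 35 held 2, 13 held 3 and 5 held 4 or more. Gaps between genes of the same orientation held 159 members, convergent gaps 86 and divergent gaps 75. Within 1 kb of another member lay 41 members, and 69 lay within 250 bp of another summit of the pooled list. These counts were not set against gap length or other regions, so they do not show that members cluster.

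The gap with most members, 21605 bp between corto and CG43131 on 3R, held 6, of which 4 were IDR members, with pooled signals from 81.68 to 262.6. Corto is a chromodomain protein known to bind Polycomb- and trithorax-group proteins. The gap's 4 IDR members had 144.8, 132.7, 101.1 and 74.84 in replicate 1 and 117.2, 101.1, 81.87 and 102.0 in replicate 2. None of the 6 windows held GGAACG, and that of rank 1678 held the GAAACG copies shown above. A gap of 20910 bp on 2L lies between the non-coding genes lncRNA:CR44603 and lncRNA:CR45695. The nearest protein-coding gene of 4 of its 5 members, beyond a further gap of 4094 bp, is chinmo, which encodes a BTB zinc finger protein that sets temporal identity in neurons. Of the 5 members, 1 was in the IDR list (signals 91.09 in replicate 1 and 121.2 in replicate 2). Over both gaps, chinmo was the nearest protein-coding gene of 6 members, the most for 1 gene, of which 2 were IDR members.

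Each of the other 3 gaps held 4 members, 1 of them in the IDR list. One spans 36783 bp between Su(z)2, a Polycomb-group gene related to Psc, and CG13323 on 2R, with pooled signals from 86.04 to 131.4. Another spans 11259 bp between lncRNA:CR44761 and Ppa, an F-box gene. Its IDR member, at rank 779, has RYBP, whose product binds ubiquitin and Polycomb-group proteins, as its nearest protein-coding gene, beyond that non-coding gene, and had 163.9 in replicate 1 and 182.5 in replicate 2. The last spans 19063 bp next to CG7560 on 3L, with pooled signals from 82.22 to 128.8. No member of the 5 gaps held GGAACG. At a later member of the gap next to Ppa, nearest to that gene, the replicate 2 summit lay nearer to another pooled summit.

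The nearest protein-coding genes were read against 7 gene lists. Homeodomain genes were nearest to 12 members (3.75%), against 3.84% of the other 3096 autosomal intergenic regions of the pooled list. IDR members of this list lay near Hmx (signal 721.3), the segment polarity gene en (340.3) and the Iroquois genes mirr (244.6) and caup (195.6), and those near Hmx, en and mirr held GGAACG. Other developmental transcription factors were nearest to 21 members (6.56%), against 5.14% of the other regions. These included 3 IDR members near hry, the pair-rule gene also called hairy (320, 190.1 and 148.8), 2 near the forkhead gene croc (143.9 and 142.9) and 1 near pros, a neural fate regulator (148.4). All 9 IDR members of this list lacked GGAACG. The shares of both lists lay within the counting intervals of the members, 2.16 to 6.44% and 4.33 to 9.82%.

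The remaining lists had few members. Odorant, gustatory and ionotropic receptor genes were nearest to 9 members (2.81%, 1.49 to 5.26%), against 1.61% of the other regions, with IDR members near Or22b (261.0), Ir68a (213.5) and Or98b (160.7). Surface recognition genes were nearest to 5 (1.56%), against 2.26%, 1 of them an IDR member near DIP-gamma (185.3). Signalling pathway genes were nearest to 4 (1.25%), against 1.52%, and the 1 IDR member lay 5159 bp from the TSS of hh, the Hedgehog ligand gene (225.2). That region held GGAACG, as did those near Or22b, Or98b and DIP-gamma. Cuticle and chorion genes were nearest to 1 member, against 0.711% of the other regions. Ion channel and neurotransmitter receptor genes were nearest to 0 of 320 members, which allows a share of up to 0.938% by the limit of 3 counts and up to 1.19% by the Wilson interval, against 0.420% of the other regions.

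The members had 243 different nearest genes. Of these, 66 had an IDR summit within 1 kb of 1 of their own TSSs (27.2%, 22.0 to 33.1%), against 15.8% of all 11669 autosomal protein-coding genes. The nearest genes of the lowest-ranked intergenic regions had one in 110 of 637 cases (17.3%, 14.5 to 20.4%), and those of intronic sites in 251 of 596 (42.1%). Of the 28 members with GGAACG, 1 had a nearest gene with such a promoter summit. That count is of members and not of genes, so it cannot be set against the shares above. The same share was not computed for members without GGAACG, so no contrast is drawn from it. The shares of genes describe where the regions lie and were not tested against gene density.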

How the data were processed

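Peak lists of 2 replicates, their pooled list and the IDR list were used, on build dm6 per the labels. In each list the authors give a region's signal and its −log10 q-value, with the summit as another deposited value, an offset in bp. Per the deposited notes, the 3 relaxed lists of 30000 regions include background and rest on 1 control alignment. For the aligner, the peak caller, their versions, the scaling of the signal and the IDR threshold: not given in the sources used here. Signal served only to rank, describe and filter regions within a list, and depth is unknown.

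Regions on Y were left out (3 of the pooled list). Summits were placed on the Release 6 assembly and the Ensembl release 115 annotation (BDGP6.54), whose transposable elements were kept out of the gene set. Coordinates are 1-based, and sequences come from the RefSeq copy of the dm6 assembly. Computation used Python 3.11.15, numpy 2.4.6, pandas 2.3.3 and scipy 1.17.1. Motif search, classification and intervals were tested on simulated data. Columns of other samples numbered 0.

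Shares have 95% Wilson intervals, differences 95% Newcombe intervals and densities exact Poisson intervals, and a share of 0 also has the limit that 3 counts of the total give; a difference counts as past the threshold when its interval excludes 0. No p-values are given, because regions are not replicates. The members, the 6-mer, the gene lists and the comparisons were chosen with earlier results of these data known. Named regions are the 10 IDR and 5 later members of highest signal, those at the limits, the 5 with the largest replicate difference, the 5 with most GGAACG copies (2 with more than 2 copies, and the 3 of highest signal among 5 tied at 2; spel1 and Spn47C are the other two), the farthest from a TSS, gaps with 4 or more members and the 5 6-mers of largest ratio (with 1 tied), and members of the gene lists; others are said to be chosen after their values were seen. Alternatives changed the TSS distance, windows, flanks, matching, ranking, replicates, clusters and exclusions.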

Additional observations from a re-analysis of the deposited data

How the results depend on the processing

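Over 18 alternatives, 12 planned and 6 added after seeing the data, 87 of 98 recomputed values were counted as kept. Differences were kept if their direction and the side of 0 of their interval stayed, whatever their size. Other values were kept if they stayed within the spread or interval of the main value. Kept differences could thus be far from the main value. In regions of another width than 400 bp, summits minus flanks was 19.3 points, against 6.72. The number of members, which has no interval, was counted as kept throughout. It ran between 232 with a TSS limit of 2 kb and 422 with 500 bp, against 320. Division by called width and counting GAAACG too were added after seeing the data. With GGAACG or GAAACG, IDR minus later members was 22.0 points, members minus lowest-ranked regions 13.2 and summits minus flanks 12.8. In regions called at 400 bp, summits minus flanks was 1.34 points, members minus lowest-ranked regions 1.67 and IDR minus later members 0, each with an interval that includes 0, and members minus intronic sites was −0.939. In regions called at another width, members minus intronic sites was 7.05 points (−1.36 to 16.9) and IDR minus later members 7.06 (−30.7 to 22.2), with 7 later members left, and no lowest-ranked region was left to compare. Members minus intronic sites (1.95 points, interval including 0) had an interval that excludes 0 with a window of 25 bp (2.99) and with GGAACG or GAAACG counted (5.12). Ranking by 1 replicate list gave 2.71 without replicate 1 and 3.57 without replicate 2, the second with an interval that excludes 0. For transposable elements the same lists gave 1.05 and 0.659 points, the first with an interval that excludes 0. The median TSS distance was 2263 bp with a limit of 500 bp and 4826 bp with 2 kb, which follows from the limit itself. The lowest and highest values of single-replicate ranking were 7.18 and 8.17 points for summits minus flanks, 6.68 and 7.29 for members minus lowest-ranked regions, 10.2 and 10.97 for IDR minus later members, 312 and 355 for the number of members, and 3144 and 3362 bp for the median TSS distance. Replicate signals and recurrence could not be computed from 1 replicate. The RefSeq annotation gave 321 members, including all 320. Unknown depth limits what can be said of weak sites, and with 2 replicates the spread between embryo collections is known only from 1 pair. No paired analysis was possible because the 2 samples form 1 group.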
